A study of Mus musculus with 6 samples.

Results

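The mitochondrially encoded genes were taken as every gene whose deposited name starts with mt-, which gave 31 of the 48733 named genes. They comprised 10 mRNA features, 2 rRNA features and 19 tRNA features. The values came from RNA-seq of mice of CC016/GeniUnc, an inbred strain of the Collaborative Cross. In all, 3 libraries are labelled bone, from femoral cortical bone with the marrow removed, and 3 are labelled osteoblasts. The osteoblasts were grown from bone marrow stromal cells, the adherent cells of the marrow, in culture with dexamethasone, ascorbic acid and beta-glycerophosphate. The study counted transcripts with and without a poly(A) tail to ask which genes at a locus for bone density were expressed in either sample type. Bone and osteoblasts came from 3 mice by the study's methods, and no source used here says that equal replicate numbers mark the same mouse. No allele or treatment other than the culture medium is given for either label.

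The mitochondrial genome is a small circle that encodes subunits of oxidative phosphorylation (OXPHOS), together with the rRNAs and tRNAs that translate them inside the organelle. Each strand is copied into a long precursor, and the tRNAs that lie between most of the other genes mark where it is cleaved. Most genes are read from one strand, by convention the heavy-strand transcript, while *mt-Nd6* and some of the tRNAs are read from the other, here called light-strand genes. Every OXPHOS complex with mitochondrial subunits also needs subunits from nuclear genes, and complex II is nuclear throughout. Bone-forming cells use this respiration beside glycolysis.

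Expression was measured as FPKM, the fragments per length of feature scaled to the aligned fragments of the library, so a value is a level per length. Depth, read from the ratio of coverage to FPKM, was 2.03 to 3.39 Gb of aligned bases, or 13565333 to 22584000 read pairs, per library. At that depth 3 read pairs on 1 kb correspond to 0.133 to 0.221 FPKM, which covers counting error only. The hemoglobin gene *Hbb-bt* was above 1000 FPKM in the libraries labelled bone replicate 3, osteoblasts replicate 2 and osteoblasts replicate 3, at 34838, 34268 and 48650 FPKM. It was at 7.05, 3.58 and 3.43 FPKM in bone replicate 1, bone replicate 2 and osteoblasts replicate 1. The 9 of 10 matched neutrophil markers divided the libraries in the same way, with summed levels of 10.7, 2.95 and 14968 FPKM in bone and 2.67, 16499 and 18188 FPKM in osteoblasts. The 6 of 7 matched macrophage markers went the other way, and summed to 2762, 1397 and 403 FPKM in bone and to 1580, 533 and 422 FPKM in osteoblasts. No matched marker of these lists was at 0 in every library. How many of all genes divide the libraries by the *Hbb-bt* level was not counted. Where a gene or ratio below divides them so, the division is not shown to be particular to it. Labels were kept as deposited, and where 3 values follow a label they are those of replicates 1, 2 and 3. In bulk RNA, fewer cells of a type and less RNA per cell cannot be told apart.

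The tables give GRCm38 coordinates, by which 26 of the 31 features had the same start and end as the GENCODE vM1 annotation of the mitochondrial chromosome, which lists 37 genes. The other 5 were loci in which StringTie had joined neighbours, so that 6 genes had no name of their own. *mt-Atp8* (MT from 7766 to 9390) held *mt-Atp8*, *mt-Atp6* and *mt-Co3*. *mt-Nd4l* (MT from 9877 to 11544) held *mt-Nd4l* and *mt-Nd4*. *mt-Nd1* held *mt-Ti*, *mt-Nd2* held *mt-Tw*, and *mt-Ts2* held *mt-Tl2*. *mt-Atp6* and *mt-Co3* meet in a single shared base at 8607, which is not shown. The sequences where *mt-Atp8* overlaps *mt-Atp6* and where *mt-Nd4l* overlaps *mt-Nd4* are shown because these genes share more bases. They lie in the NCBIM37 genome at chrM:7907-7989 and chrM:10147-10193 on the plus strand, with the 43 and 7 shared bases in capitals.
mt-Atp8 and mt-Atp6: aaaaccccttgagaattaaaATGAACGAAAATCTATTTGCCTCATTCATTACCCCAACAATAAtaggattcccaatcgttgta
mt-Nd4l and mt-Nd4: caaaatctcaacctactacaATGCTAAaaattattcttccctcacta

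In what follows *mt-Atp8* and *mt-Nd4l* mean the whole locus unless a gene alone is named. A tRNA can also abut both of its neighbours. *mt-Tl1*, a leucine tRNA that follows the large rRNA, is shown in capitals with 20 bases of *mt-Rnr2* before it and 20 of *mt-Nd1* after it (NCBIM37 chrM:2656-2770, plus strand), because its level is set below against theirs.
mt-Tl1: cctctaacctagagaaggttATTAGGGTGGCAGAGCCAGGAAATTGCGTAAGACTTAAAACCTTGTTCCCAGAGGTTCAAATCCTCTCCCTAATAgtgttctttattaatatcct

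Mitochondrial features held 6.68%, 7.91% and 1.33% of the summed FPKM of named genes in bone, and 3.43%, 1.78% and 2.30% in osteoblasts. The 3 libraries with *Hbb-bt* below 1000 FPKM had the 3 highest shares, 2 of them labelled bone and 1 labelled osteoblasts. The labels overlapped. The libraries labelled bone averaged 5.31% ± 3.50 (SD, n = 3), those labelled osteoblasts averaged 2.50% ± 0.845 (SD, n = 3), and the difference was -2.80 percentage points (two-sided exact permutation test, p = 0.4, where the smallest p that 3 against 3 allows is 0.1). Genes named Hba- or Hbb- took 6.90%, 6.87% and 10.7% of the named FPKM in the libraries with *Hbb-bt* above 1000 FPKM, and without them the difference between the labels was -2.70 points. Features with no name took 71.5% of all FPKM in bone replicate 2 and 65.0% in osteoblasts replicate 1. As a share of all features, the mitochondrial genes came to 4.63%, 2.26% and 0.948% in bone and 1.20%, 1.26% and 1.67% in osteoblasts, so osteoblasts replicate 1 was then below both other libraries of its label.

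**Figure D1:**
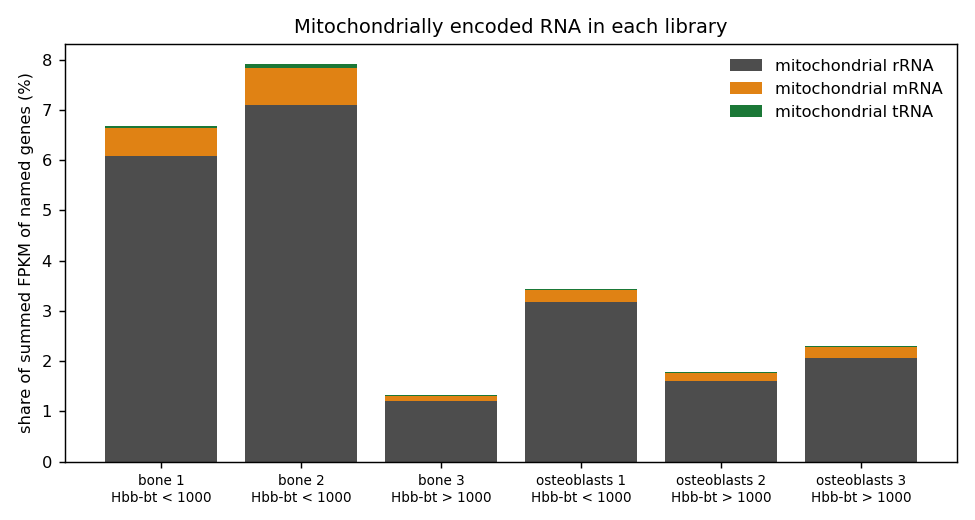
Share of the summed FPKM of named genes (%, vertical axis) taken by mitochondrial rRNA, mRNA and tRNA features in each library, 1 stacked bar per library with its deposited label and its *Hbb-bt* level relative to 1000 FPKM. The bars of bone replicates 1 and 2 reach 6.68% and 7.91%, and rRNA makes up most of every bar.

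The rRNAs made up 89.4 to 92.7% of the mitochondrial FPKM, the mRNAs 6.85 to 10.1% and the tRNAs 0.473 to 0.913%. Of named FPKM, the mRNAs held 0.568%, 0.743% and 0.111% in bone and 0.235%, 0.159% and 0.232% in osteoblasts. The rRNAs held 6.08%, 7.10% and 1.21% in bone and 3.18%, 1.61% and 2.06% in osteoblasts, and the tRNAs 0.0355%, 0.0723% and 0.00800% in bone and 0.0165%, 0.0107% and 0.0109% in osteoblasts. In each class the highest share was in bone replicate 2 and the lowest in bone replicate 3, so both extremes carried the same label. The rRNA sum was 10.7, 9.55 and 10.9 times the mRNA sum in bone and 13.5, 10.1 and 8.85 times in osteoblasts. That ratio differed between the labels by 0.04 on the log2 scale (two-sided exact permutation test, p = 0.9, n = 3 per label). These shares and ratios leave out the nuclear copy of mitochondrial DNA on Chr. 1 described below. Its features came to 64.8 to 71.6% of the mRNA sum, and with them added to the mRNAs the log2 difference was 0.0040.

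*mt-Rnr2* (MT from 1094 to 2675), the RNA of the large subunit of the mitochondrial ribosome, measured 31240, 22039 and 8001 FPKM in bone and 8571, 11430 and 13684 FPKM in osteoblasts. It ranked between 2 and 10 among all named genes in every library. *mt-Rnr1* (MT from 70 to 1024), the RNA of the small subunit, measured 4914, 3233 and 2563 FPKM in bone and 3842, 2440 and 3248 FPKM in osteoblasts. The 2 rRNAs, which lie next to each other with a valine tRNA between them, did not keep to 1 ratio: *mt-Rnr2* was 6.36, 6.82 and 3.12 times *mt-Rnr1* in bone and 2.23, 4.69 and 4.21 times in osteoblasts. From the lowest to the highest library *mt-Rnr1* varied 2.01-fold and *mt-Rnr2* 3.90-fold, and their log2 fold changes of osteoblasts over bone were -0.14 and -0.68.

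**Figure D2:**
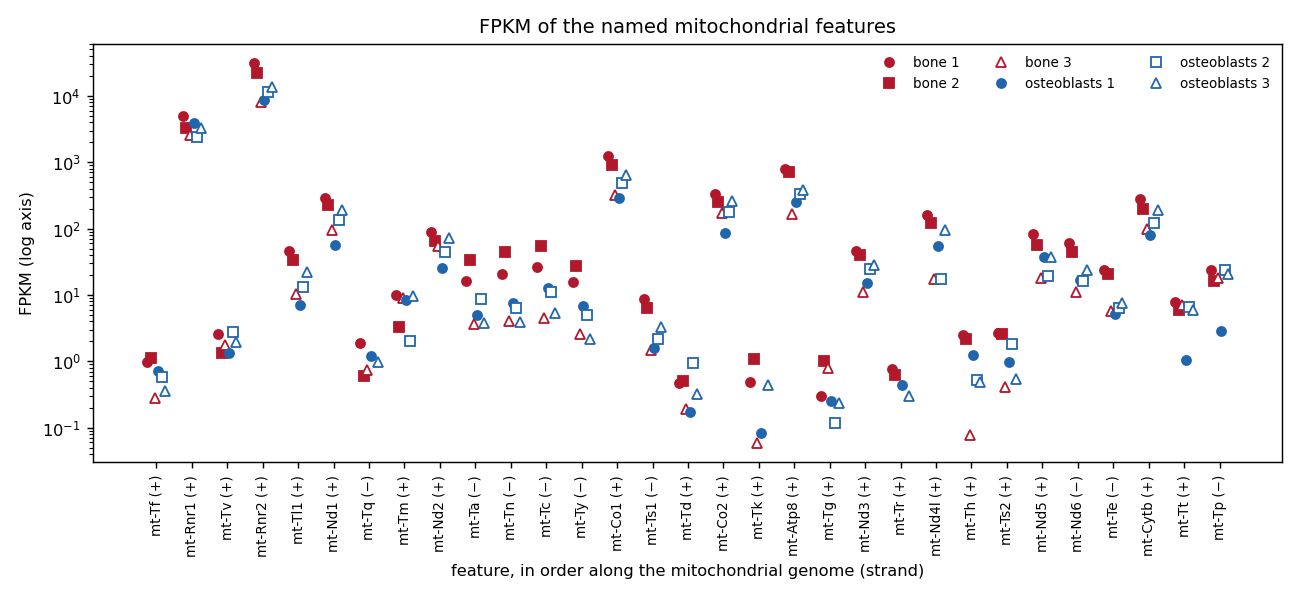
FPKM (log axis) of the 31 named features in their order along the mitochondrial genome, with the strand after each name, 1 point per library (red, labelled bone; blue, labelled osteoblasts; circle, square and triangle, replicates 1, 2 and 3; filled, *Hbb-bt* below 1000 FPKM; open, above). Values listed at 0 are not drawn. *mt-Rnr2* is highest in each library at 8001 to 31240 FPKM, and bone replicate 1 is highest for all 10 mRNA features.

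Among the mRNAs, *mt-Co1*, the catalytic subunit of cytochrome c oxidase (complex IV), was highest in each library. It measured 1253, 921 and 319 FPKM in bone and 292, 479 and 639 FPKM in osteoblasts, which was 31.8 to 37.1% of the mRNA sum. *mt-Co2*, which takes electrons from cytochrome c, measured 327, 251 and 174 FPKM in bone and 86.8, 180 and 261 FPKM in osteoblasts. For both genes osteoblasts replicate 3 was above bone replicate 3, and the labels overlapped.

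The *mt-Atp8* locus, with 2 subunits of ATP synthase (complex V) and the third mitochondrial subunit of complex IV, measured 799, 722 and 168 FPKM in bone and 254, 332 and 376 FPKM in osteoblasts. *mt-Cytb*, cytochrome b of complex III, measured 279, 197 and 98.0 FPKM in bone and 78.9, 121 and 193 FPKM in osteoblasts. Osteoblasts replicate 1 was lowest of the 6 libraries for *mt-Cytb* and bone replicate 3 for the *mt-Atp8* locus.

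Complex I, which passes electrons from NADH to ubiquinone, has the most mitochondrial subunits. *mt-Nd1* measured 284, 226 and 96.7 FPKM in bone and 57.1, 135 and 188 FPKM in osteoblasts, and *mt-Nd2* measured 88.3, 64.0 and 55.3 FPKM in bone and 25.4, 43.9 and 72.1 FPKM in osteoblasts. *mt-Nd3* measured 46.2, 39.6 and 10.9 FPKM in bone and 14.9, 24.9 and 28.6 FPKM in osteoblasts. *mt-Nd5* measured 81.8, 56.0 and 17.9 FPKM in bone and 36.7, 19.5 and 37.6 FPKM in osteoblasts. These 4 did not order the libraries alike: osteoblasts replicate 1 was lowest for *mt-Nd1* and *mt-Nd2*, and bone replicate 3 was lowest for *mt-Nd3* and *mt-Nd5*.

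The *mt-Nd4l* locus varied most among the mRNA features, 9.18-fold, with 159, 123 and 17.3 FPKM in bone and 54.7, 17.3 and 94.3 FPKM in osteoblasts. Its coverage and FPKM together allow the 2 genes to be separated if the coverage is the aligned bases over the whole locus and the FPKM is the sum over its genes. On that assumption, which no source used here states, *mt-Nd4* came to 107, 79.7 and 0.744 FPKM in bone and 39.2, 0.544 and 59.7 FPKM in osteoblasts, while *mt-Nd4l* alone came to 51.5, 43.1 and 16.6 FPKM in bone and 15.5, 16.7 and 34.6 FPKM in osteoblasts. The 2 libraries with *mt-Nd4* under 1 FPKM, bone replicate 3 and osteoblasts replicate 2, were level with osteoblasts replicate 1 for *mt-Nd4l* itself. Separated in the same way, *mt-Tw* came to 1.67 to 14.9 FPKM and *mt-Ti* to 0.00017 to 3.44 FPKM.

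*mt-Nd6* (MT from 13552 to 14070), a complex I subunit and the only light-strand mRNA, measured 61.2, 44.9 and 11.1 FPKM in bone and 16.8, 16.3 and 24.0 FPKM in osteoblasts. As a percentage of the other 9 mRNA features it was at 1.85, 1.73 and 1.16 in bone and 1.86, 1.21 and 1.27 in osteoblasts. The 3 libraries with *Hbb-bt* below 1000 FPKM held the 3 highest values of that ratio, 1 of them labelled osteoblasts. Between the labels the ratio differed by -0.12 on the log2 scale (two-sided exact permutation test, p = 1, n = 3 per label). The kit named in the labels does not mark the strand, so reads from *mt-Nd6* and from the heavy-strand transcript across it cannot be told apart.

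The tRNA features are 65 to 75 bases long apart from the *mt-Ts2* locus, and so no longer than 1 read of 75 bases. All of them were at 55.2 FPKM or less in every library, and 13 of the 19 had a mean of at least 1 FPKM over the 6 libraries. The others were *mt-Tf*, *mt-Tq*, *mt-Td*, *mt-Tk*, *mt-Tg* and *mt-Tr*, of which *mt-Tq*, *mt-Tk* and *mt-Tr* were listed at 0 in osteoblasts replicate 2 and *mt-Tr* also in bone replicate 3. *mt-Tl1* measured 46.2, 33.1 and 10.2 FPKM in bone and 7.02, 13.3 and 21.8 FPKM in osteoblasts, far below *mt-Rnr2* on one side and below *mt-Nd1* on the other in each library. *mt-Tv*, the valine tRNA between the rRNAs, stayed within 1.34 to 2.77 FPKM.

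The features annotated as light-strand tRNAs had a higher median than those of the heavy strand in each library, a difference that was not tested. The median over 8 light-strand features was 18.4, 24.0 and 3.82 FPKM in bone and 5.13, 6.36 and 3.87 FPKM in osteoblasts, against 2.48, 1.35 and 0.407 FPKM in bone and 0.966, 0.935 and 0.480 FPKM in osteoblasts over 11 heavy-strand features. Of the light-strand tRNAs 7 or 8 were at 1 FPKM or more in each library, and of the heavy-strand tRNAs 4 to 9. Single features crossed this order: the heavy-strand *mt-Tl1* was the highest tRNA of all in bone replicate 1 and osteoblasts replicate 3, and the light-strand *mt-Tq* was at 0 to 1.89 FPKM. As for *mt-Nd6*, the strand is that of the annotation and not of the reads. *mt-Ta*, *mt-Tn*, *mt-Tc* and *mt-Ty*, the tRNAs for alanine, asparagine, cysteine and tyrosine, form a cluster on the light strand between *mt-Nd2* and *mt-Co1*. Between *mt-Tn* and *mt-Tc* lies a gap of 32 bases, known as the origin where replication of the light strand starts. It is shown in capitals as the light-strand genes read (NCBIM37 chrM:5140-5211, minus strand), with 20 bases of each tRNA beside it, because the 4 tRNAs around it varied 9.19- to 13.0-fold between the libraries.
gap between mt-Tn and mt-Tc: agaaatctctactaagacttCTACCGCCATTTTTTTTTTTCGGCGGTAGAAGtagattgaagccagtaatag

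*mt-Tc* measured 26.1, 55.2 and 4.50 FPKM in bone and 12.7, 11.0 and 5.38 FPKM in osteoblasts. *mt-Tn* measured 20.7, 44.4 and 4.01 FPKM in bone and 7.52, 6.26 and 3.90 FPKM in osteoblasts. *mt-Ta* ranged from 3.64 to 33.4 FPKM and *mt-Ty* from 2.13 to 27.7 FPKM, both highest in bone replicate 2. Unlike the mRNAs, which were highest in bone replicate 1, these 4 tRNAs were highest in bone replicate 2, and their sum relative to the neighbouring *mt-Nd2* was 88.9%, 251% and 26.7% in bone and 126%, 70.4% and 21.2% in osteoblasts.

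*mt-Tp*, the proline tRNA at the far end of the coding region, had another order. It measured 24.1, 16.3 and 17.7 FPKM in bone and 2.83, 23.8 and 20.4 FPKM in osteoblasts, and was lowest in osteoblasts replicate 1. Relative to *mt-Cytb* it was at 8.63%, 8.27% and 18.1% in bone and 3.59%, 19.7% and 10.6% in osteoblasts. The 3 highest values were in the libraries with *Hbb-bt* above 1000 FPKM, where the values of the alanine to tyrosine cluster relative to *mt-Nd2* were the 3 lowest. Over all genes tested, the deviations of bone replicate 3 from its label mean correlated with those of osteoblasts replicates 2 and 3 at 0.83 each. A division along these libraries is therefore not particular to these tRNAs. The glutamate tRNA *mt-Te*, which lies next to *mt-Nd6* on the same strand, measured 23.4, 20.3 and 5.64 FPKM in bone and 5.21, 6.46 and 7.57 FPKM in osteoblasts. Like *mt-Nd6* and every other mRNA feature, *mt-Te* was highest in bone replicate 1. It was lowest in osteoblasts replicate 1, and *mt-Nd6* was lowest in bone replicate 3.

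**Figure D3:**
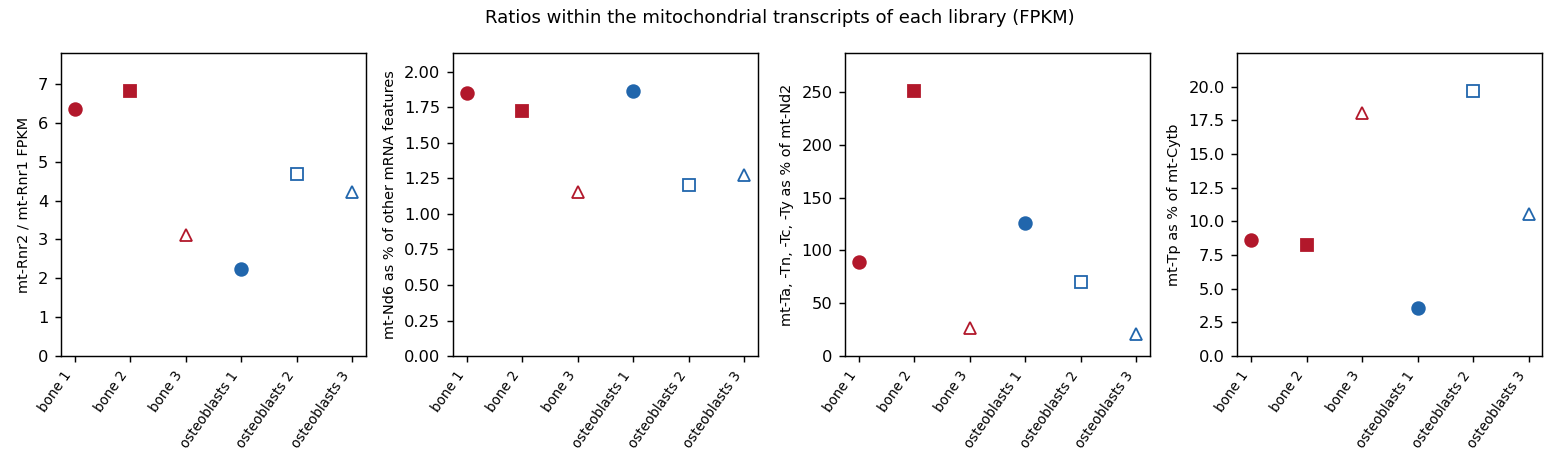
FPKM ratios within each library (vertical axes from 0, horizontal axes the 6 libraries; red, labelled bone; blue, labelled osteoblasts; filled, *Hbb-bt* below 1000 FPKM; open, above): *mt-Rnr2* over *mt-Rnr1*, *mt-Nd6* as a percentage of the other mRNA features, the *mt-Ta*, *mt-Tn*, *mt-Tc* and *mt-Ty* sum as a percentage of *mt-Nd2*, and *mt-Tp* as a percentage of *mt-Cytb*. The filled points lie above the open points for *mt-Nd6* (1.73 to 1.86% against 1.16 to 1.27%) and below them for *mt-Tp* (3.59 to 8.63% against 10.6 to 19.7%).

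To compare the labels gene by gene, all 12112 named genes with a mean of at least 1 FPKM were fitted with limma on log2(FPKM + 1), a scale that understates the change of low genes. Of the 25 mitochondrial features in the fit 0 passed an adjusted p of 0.05, as did 0% of all genes (17 at an unadjusted p under 0.05), so no mitochondrial feature was shown to differ. Without osteoblasts replicate 1, 360 of 12362 genes passed and 0 of 25 mitochondrial features. That share of all genes is too small for 0 of 25 to set the mitochondrial features apart. In the fit of all libraries, the log2 fold change of osteoblasts over bone was negative for 24 of the 25 features, against 4526 of all 12112 genes. The features are cut from shared precursors, so they are not independent observations. Their median was -0.67 against 0.12 over all genes tested, and the 10 mRNA, 2 rRNA and 13 tRNA features had medians of -0.62, -0.41 and -0.79. The exception, *mt-Tv*, was at 0.06 and turned negative with TPM or either other scaling. The lowest value was that of *mt-Tn* at -1.34 ± 0.75 (SE, n = 3 per label; limma adjusted p = 0.999). *mt-Co1* was at -0.68 ± 0.72 (SE; limma adjusted p = 0.999) and *mt-Nd6* at -0.72 ± 0.65 (SE; limma adjusted p = 0.999). None of the 25 features in the fit had its libraries under one label all above those under the other. Of all genes tested, 0.479% had this with osteoblasts higher and 0.438% with osteoblasts lower. Outside the fit, *mt-Tg* did, at 0.305, 1.01 and 0.792 FPKM in bone and 0.253, 0.117 and 0.237 FPKM in osteoblasts. Its mean was below 1 FPKM, it was not tested, and the share of such low genes that do so was not counted.

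The sums of each class were compared in the same way. On the log2 scale, osteoblasts minus bone was -0.62 for the mRNA sum (two-sided exact permutation test, p = 0.4, n = 3 per label), -0.58 for the rRNA sum (exact permutation p = 0.4) and -0.95 for the tRNA sum (exact permutation p = 0.3). The mRNA sum itself was 3378, 2645 and 968 FPKM in bone and 918, 1370 and 1913 FPKM in osteoblasts, so the range of the label bone held 2 of the 3 osteoblast values. These p-values come from reassigning the labels among the libraries and do not measure the spread within a label. The difference itself could be moved by 1 library. Without bone replicate 3 the difference in the mRNA sum was -1.16, and without bone replicate 1 it was -0.26.

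The nuclear partners of the mitochondrial subunits were read from the same fit. Of 82 nuclear OXPHOS subunit genes listed, 72 were matched and all were in the fit, where 0 passed (limma), 57 had a positive and 15 a negative log2 fold change, and the median was 0.22. The medians were 0.23 for complex I (30 genes), 0.04 for complex II (4 genes), 0.23 for complex III (8 genes), 0.14 for complex IV (17 genes) and 0.27 for complex V (13 genes). Scaling to the named genes moved the median of all genes from 0.12 to -0.03, and the share of genes with a positive value from 62.6% to 46.8%.

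Summed over the 72 genes the level was 3519, 1643 and 4165 FPKM in bone and 2249, 4418 and 4094 FPKM in osteoblasts. It was lowest in the 2 libraries where unnamed features took most of the FPKM. The mitochondrial mRNA sum came to 0.960, 1.61 and 0.232 times this nuclear sum in bone and to 0.408, 0.310 and 0.467 times in osteoblasts. This ratio does not depend on the scaling of a library, and it varied 6.93-fold over the 6 libraries, more than the mRNA sum alone at 3.68-fold. Its highest and lowest values were both under the label bone, and between the labels it differed by -0.87 on the log2 scale (two-sided exact permutation test, p = 0.4, n = 3 per label). That difference was -1.67 without bone replicate 3 and -0.28 without bone replicate 2.

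**Figure D4:**
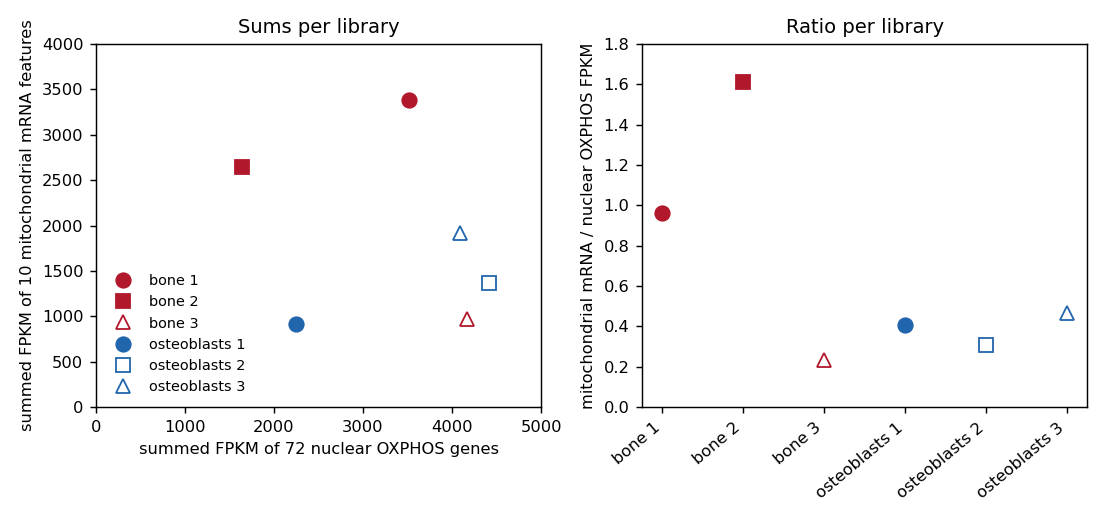
Left, summed FPKM of the 10 mitochondrial mRNA features (vertical axis) against that of 72 nuclear OXPHOS genes (horizontal axis), 1 point per library; right, their ratio in each library (red, labelled bone; blue, labelled osteoblasts; filled, *Hbb-bt* below 1000 FPKM; open, above). Bone replicates 1 and 2 have ratios of 0.960 and 1.61, and the other 4 libraries lie between 0.232 and 0.467.

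Single nuclear subunits show the difference in order. *Atp5b*, the catalytic beta subunit of ATP synthase, measured 268, 113 and 393 FPKM in bone and 174, 396 and 367 FPKM in osteoblasts. *Cox4i1*, the general form of subunit 4 of complex IV, measured 193, 108 and 164 FPKM in bone and 143, 365 and 271 FPKM in osteoblasts. Both were lowest in bone replicate 2, where the mitochondrial share of named FPKM was highest. Unnamed features took 71.5% of all FPKM in that library. Its mitochondrial share of all features, 2.26%, was below the 4.63% of bone replicate 1.

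*Ndufa3* of complex I, *Sdhb* of complex II and *Uqcr10* of complex III, the highest of their nuclear lists, were also lowest in bone replicate 2, at 24.7, 25.3 and 38.5 FPKM. *Cox6a2*, the form of subunit 6a found in heart and skeletal muscle, measured 0.487, 0 and 26.4 FPKM in bone and 0.327, 8.65 and 14.1 FPKM in osteoblasts. The 6 of 9 matched skeletal muscle markers summed to 3.82, 1.60 and 1233 FPKM in bone and to 3.65, 279 and 609 FPKM in osteoblasts, high in the same 3 libraries as *Cox6a2* and *Hbb-bt*. Their part in the result was not tested.

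The nuclear genes that copy, transcribe and process mitochondrial DNA were at low levels. *Tfam*, which packages the mitochondrial genome and starts its transcription, measured 3.38, 2.37 and 2.83 FPKM in bone and 2.74, 3.67 and 3.37 FPKM in osteoblasts. *Polrmt*, the mitochondrial RNA polymerase, was at 3.51 to 7.58 FPKM and *Lrpprc*, which keeps mitochondrial mRNAs stable, at 4.70 to 12.3 FPKM. *Ppargc1a*, a regulator of mitochondrial biogenesis, was below 0.2 FPKM in every library.

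Of the 14 genes in the fit for replication and transcription 7 had a positive and 7 a negative log2 fold change, of 20 for RNA processing and stability 11 and 9, and of 6 biogenesis regulators 3 and 3, and 0 passed (limma). *Polg*, the replicative polymerase of the organelle, was at 8.10 to 24.4 FPKM. *Tbrg4*, which acts on mitochondrial RNA, was at 6.23 to 11.4 FPKM in the libraries with *Hbb-bt* below 1000 FPKM and at 33.2 to 33.9 FPKM in the other 3. *Esrra*, a nuclear receptor that acts with *Ppargc1a*, was at 8.83 to 16.3 FPKM.

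A nuclear copy of mitochondrial DNA on Chr. 1 limits what some of these values mean. The tables list 6 named features of it on the minus strand of Chr. 1 between 24611535 and 24616197 in GRCm38: *Gm28439*, *Gm28438*, *Gm28437*, *Gm10925*, *Gm28661* and *Gm29216*. Together they measured 2193, 1715 and 629 FPKM in bone and 657, 956 and 1258 FPKM in osteoblasts, which was 64.8 to 71.6% of the mitochondrial mRNA sum. *Gm28661*, the copy of *mt-Co2*, measured 320, 247 and 170 FPKM in bone and 84.1, 177 and 252 FPKM in osteoblasts. The coverage of *mt-Co2* was 1.02 to 1.04 times that of *Gm28661* in every library. The coverage of *mt-Nd3* was 0.902 to 1.00 times that of *Gm28438*, and the coverage of *mt-Co1* was 1.26 to 1.50 times that of *Gm29216*, which copies only part of it.

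**Figure D5:**
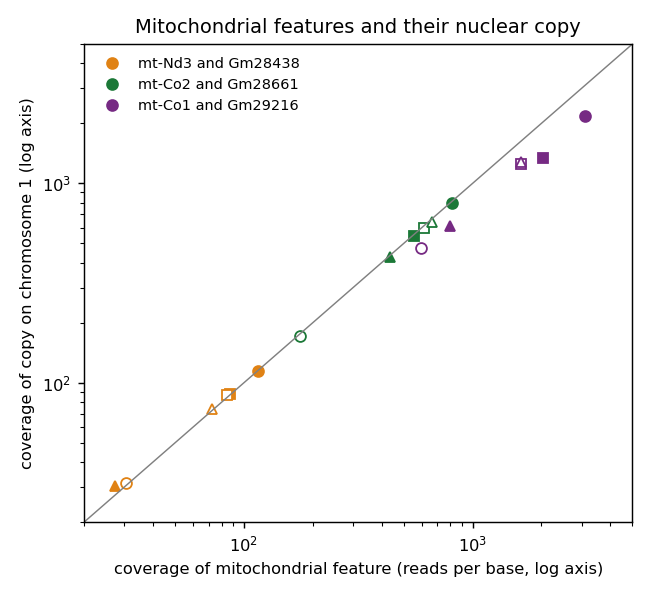
Coverage (reads per base, log axes) of *mt-Co1*, *mt-Co2* and *mt-Nd3* (horizontal axis) against that of their named copies on Chr. 1 (vertical axis), 1 point per library (circle, square and triangle, replicates 1, 2 and 3; filled, labelled bone; open, labelled osteoblasts). The line marks equal coverage, and *mt-Co2* lies close to it with ratios of 1.02 to 1.04.

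In NCBIM37, where the genome sequence could be read, the copy runs from 24618374 to 24623027 on the minus strand of Chr. 1 and aligns with positions 6390 to 11042 of the mitochondrial genome, 28.5% of its 16299 bases, at 99.936% identity. Over 4654 aligned bases there were 2 substitutions, A6393T in *mt-Co1* and T9461C in *mt-Nd3*, and 1 base inserted in the copy within *mt-Tr*. Each substitution gives the mitochondrial base first, and positions count from 1 at the start of the mitochondrial reference. Both are shown with the bases around them, the differing base in capitals. They are shown because in NCBIM37 no other substitution tells a read of this region from its copy. Neither the copy nor the exact windows given below were checked in CC016/GeniUnc, the strain sequenced.
mt-Co1 in the mitochondrial genome: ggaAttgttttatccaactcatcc
mt-Co1 in the copy on Chr. 1: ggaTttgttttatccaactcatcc
mt-Nd3 in the mitochondrial genome: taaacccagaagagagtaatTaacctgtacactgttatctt
mt-Nd3 in the copy on Chr. 1: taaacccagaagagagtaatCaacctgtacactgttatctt

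Every 75-base window of *mt-Co2*, *mt-Atp8*, *mt-Atp6*, *mt-Co3* and *mt-Nd4l* occurs letter for letter in the copy, as do 98.9% of the windows of *mt-Nd3*, 61.5% of *mt-Nd4* and 27.5% of *mt-Co1*. A single read of such a window cannot be told apart from one of the copy, and the deposited levels of these genes are uncertain by as much as the copy's own. *mt-Rnr1*, *mt-Rnr2*, *mt-Tl1*, *mt-Nd1*, *mt-Nd2*, *mt-Nd5*, *mt-Nd6* and *mt-Cytb* have no such window on Chr. 1. The 5 mRNA features among them summed to 795, 588 and 279 FPKM in bone and to 215, 336 and 514 FPKM in osteoblasts, and came to 0.226, 0.358 and 0.0670 times the nuclear OXPHOS sum in bone and 0.0956, 0.0760 and 0.126 times in osteoblasts. The order of the libraries in that ratio had bone replicates 1 and 2 highest and bone replicate 3 lowest, as with all 10 features. With the copy added to all 10 features instead, the ratio was 1.58, 2.65 and 0.383 in bone and 0.700, 0.527 and 0.775 in osteoblasts.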

How the data were processed

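RNA was sequenced from 3 libraries labelled bone and 3 labelled osteoblasts. Per the paper's methods and the submitters' processing notes, the authors made TruSeq RNA v2 libraries from total RNA, aligned 75 bp paired reads to GRCm38 (HISAT2 2.0.5, SAMtools 1.7) and estimated abundance with StringTie 1.3.3. The authors deposited, for each feature, its coverage (the mean number of reads per base), its FPKM (scaled to all aligned reads) and its TPM (the same values rescaled within the library). No read counts are in these tables. Reads that fit several places and reads over joined genes were divided by the authors' software in a way not given in the sources used here, which bears on the genes with a copy on Chr. 1.

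Rows with the same name were summed. Hbb-bt above 1000 FPKM describes libraries and defines no group. Groups came from the labels, and no library was moved. Depth was read from coverage divided by FPKM, at its commonest value, and intervals for single values cannot be given without counts. Genes with a mean of at least 1 FPKM were tested on log2(FPKM + 1) with limma 3.58.1 in R 4.3.3 (eBayes with a trend, Benjamini-Hochberg, threshold 0.05), and sums and ratios with exact permutation tests. On simulated data for 12112 genes with 200 changed by 2 on the log2 scale and a spread of 0.3, limma recovered 200 with 12 other calls. That spread was smaller than in these libraries, where *mt-Co1* had a limma SE of 0.72. The simulation checks that the fit runs as intended and does not measure its power here. Other steps used Python 3.11.15, pandas 2.3.3, numpy 2.4.6, scipy 1.17.1 and matplotlib 3.10.9. The nuclear copies were found with blastn 2.17.0 in NCBIM37, and sequences were read with pysam 0.24.0 by GENCODE vM1 genes of that build, whose mitochondrial genome is the reference of C57BL/6J. No coordinates were converted between builds.

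The members and gene lists were chosen with earlier results of these data known. Named were all mt- genes, Hbb-bt, the features of the Chr. 1 copy, the highest nuclear gene of each list, those with the largest and smallest log2 fold change of each OXPHOS complex, the core genes Tfam, Polrmt, Lrpprc and Ppargc1a, and markers beside a result. Of the second kind only Cox6a2 is described. Alternatives were a pseudocount of 0.1, no filter or a mean of at least 5 FPKM, TPM, other scalings and denominators, limma without a trend, the replicate block, and leaving out each library. Sums with the Chr. 1 copy, sums without the genes it holds, shares without globins, and leaving out both libraries with mostly unnamed FPKM were added after seeing the data.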

Additional observations from a re-analysis of the deposited data

Results flagged for a closer look

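The tables also hold 2 features without a name on the minus strand of the mitochondrial genome, outside the comparisons above, with levels over the 0.133 to 0.221 FPKM that 3 read pairs on 1 kb allow. The feature from 533 to 11827 reached 19.9 FPKM in osteoblasts replicate 2, with 17.6, 0.0909 and 0 FPKM in bone replicates 1, 2 and 3 and 12.2 and 0.832 FPKM in osteoblasts replicates 1 and 3. The feature from 1529 to 11467 reached 22.2 FPKM in osteoblasts replicate 3, with 4.98, 0.204 and 0 FPKM in bone replicates 1, 2 and 3 and 1.10 and 6.66 FPKM in osteoblasts replicates 1 and 2. Its coverage in osteoblasts replicate 3 was only 2.01 reads per base, against 65.3 for the feature from 533 to 11827 in osteoblasts replicate 2. The FPKM of the feature from 1529 to 11467 is therefore not a level over its whole length. Both were listed at 0 in bone replicate 3, and they did not follow the label or the *Hbb-bt* level. They run opposite to the rRNAs and most mRNAs, and since the library kit does not mark the strand, their reads cannot be told apart from those of the genes they cross.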

How the results depend on the processing

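No mitochondrial and no nuclear OXPHOS gene passed the limma threshold under any alternative, and neither did any other gene except in 3 fits. The replicate block called 49 genes (46 higher and 3 lower in osteoblasts), and leaving out 1 library gave 0 to 360 calls, with 360 without osteoblasts replicate 1 and 3 without bone replicate 3. Same-numbered libraries had correlations of 0.84, -0.75 and 0.83 in their deviations, and 3 of 6 libraries correlated best with their own number, so the numbers were not taken to pair the libraries, and the replicate block moved no call of a mitochondrial or OXPHOS gene. In all, 72 of 77 alternatives for the sums and ratios and 354 of 368 for single features kept their direction. The ratio of rRNA to mRNA, 0.04 in the report, was -0.0075 on aligned bases, -0.19 without the 2 libraries with mostly unnamed FPKM and -0.13 to 0.17 with 1 library left out. That of *mt-Nd6* to the other mRNAs was -0.33 to 0.0063 with 1 library left out. *mt-Tv* was -0.0051 with TPM, -0.0802 scaled to named genes and -0.0055 scaled to the 75th percentile. Without both of those libraries *mt-Nd3* was 0.22 and *mt-Tp* 0.0898. With 1 library left out, the log2 fold change was -0.35 to 0.12 for *mt-Rnr1*, -0.11 to 0.23 for *mt-Tv*, -0.65 to 0.36 for *mt-Tm*, -0.93 to 0.0644 for *mt-Nd3*, -1.61 to 0.0318 for *mt-Nd4l* and -1.15 to 0.20 for *mt-Tp*. The cause was not tested. Over the same fits the mitochondrial share differed by -4.79 to -1.50 points and the ratio to nuclear OXPHOS by -1.67 to -0.28. With 3 libraries per label, p could not fall below 0.1 in the permutation tests. Without counts, the precision of low tRNA values is unknown.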

Other observations

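Besides Chr. 1, the mitochondrial genome aligned with long stretches of other NCBIM37 chromosomes. A stretch of Chr. 2 aligned over 3260 bases at 97.4% identity and one of Chr. 4 over 2875 bases at 93.0%. Both are less alike than the copy on Chr. 1, and with every chromosome included 39.8% of the 75-base windows of *mt-Co1* had an exact match outside the mitochondrial genome, against 27.5% on Chr. 1 alone. For *mt-Nd2* the share was 5.71%, for *mt-Rnr2* 2.85% and for *mt-Nd5* 1.66%, all 3 of which had none on Chr. 1. *mt-Rnr1*, *mt-Nd1*, *mt-Nd6* and *mt-Cytb* had none on any chromosome.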
